A study of Homo sapiens with 12 samples.

Results

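The 57 genes described here encode the proteins that put acetyl groups on histones, take them off and bind to chromatin carrying them. They were given as a list of gene symbols, and all 57 were found among the 43481 genes of the deposited tables. They comprise 19 acetyltransferases and their coactivator subunits, 11 zinc-dependent deacetylases, 6 sirtuins, 4 corepressor scaffolds, 8 bromodomain readers and 9 readers with PHD or YEATS domains.

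The transcripts were measured in RPE-1 cells, a human line established from the pigmented epithelium behind the retina, by sequencing of poly-A RNA. There were 4 groups and 12 libraries, 3 per group. All cells had first been deprived of fetal calf serum (FCS) and glucose for 24 h. The C646 group was then refed for 4 h with 10% FCS and 5 g/l glucose containing 10 µM C646, an inhibitor of the acetyltransferases p300 and CBP. The DMA group was refed in the same way with 100 µM dimethyl amiloride (DMA), an inhibitor of Na+/H+ exchangers. The solvent group was refed with DMSO alone, and the starved group was not refed. Whether the starved cells received DMSO is not stated in the labels. The labels also do not say whether the numbered replicates were separate cultures, so the p-values measure only the spread between these samples, which may be technical.

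Histone acetyltransferases ("writers") transfer the acetyl group of acetyl-CoA to lysines of the histone tails, which loosens chromatin and creates docking sites for reader proteins. Deacetylases ("erasers") remove it. Some of the zinc-dependent HDACs, such as HDAC1 and HDAC2, act within corepressor complexes built on scaffolds such as SIN3 and CoREST. The sirtuins act at the expense of NAD+. Bromodomains and YEATS domains bind acetylated lysines, whereas the PHD fingers of the ING family bind a methylated lysine and bring acetyltransferase or deacetylase complexes to it.

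The libraries held 14910516 to 28968510 expected counts, and the lowest count of any of the 57 genes in any library was 65. Spike-in sequences took 0.527% to 1.28% of the counts and mitochondrial transcripts 1.67% to 4.14%. Keratin 18 (KRT18) averaged 558 TPM and vimentin (VIM) 4251 TPM over the 12 libraries, and the melanocyte and pigment epithelium regulators MITF and OTX2 averaged 12.55 and 9.72 TPM. Transcripts of the visual cycle and pigment genes RPE65, RLBP1, TYR and TYRP1 were near 0, with means of at most 0.113 TPM. The summed level of the 11 pigment epithelium markers, most of it from VIM, KRT18 and KRT8, was 4347 to 5233 TPM with C646, 4747 to 5280 TPM with DMA, 4944 to 5281 TPM with solvent and 5682 to 6087 TPM in starved cells, so that all starved libraries lay above all others. Summed markers of blood, endothelium and columnar epithelium did not exceed 1.30, 0.862 and 0.250 TPM in any library. Of the neuronal markers, SYT1 averaged 16.3 TPM, and the summed level of the 3 markers was 13.6 to 14.96 TPM with C646, 11.6 to 15.4 TPM with DMA, 11.8 to 16.8 TPM with solvent and 27.1 to 34.6 TPM in starved cells. The starved libraries were again above all others. The part of both marker lists in the results below was not tested. In bulk RNA, fewer cells of a type and less RNA per cell cannot be told apart. All 57 genes passed the filter on low counts.

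The transcript levels of the 57 genes spanned BRD2, with a mean of 201 TPM over all libraries, to HDAC4, with 3.56 TPM, around a median of 17.1 TPM. TPM, the share of a transcript in its library after correction for length, allows genes to be compared. BRD2, a reader of the BET family, measured 194, 215 and 235 TPM with C646, 151, 204 and 165 TPM with DMA, 172, 192 and 190 TPM with solvent and 221, 235 and 232 TPM in starved cells. Next came HDAC2, a nuclear deacetylase of the SIN3, NuRD and CoREST complexes, with a mean of 181 TPM. These top 2 genes were separated in every library from the third, TADA3, a shared subunit of the SAGA and ATAC acetyltransferase complexes, which averaged 70.3 TPM.

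HDAC1, HDAC3 and HDAC7 followed with means of 56.9, 54.8 and 54.4 TPM, too close together to be ordered given their spread between libraries. EP300 (p300) and CREBBP (CBP), paralogous coactivator acetyltransferases and the targets of C646, lay near the median of the group with 18.3 and 17.6 TPM. Mean levels below 10 TPM were found for 11 genes, among them NCOA2 with 5.68 TPM, HDAC11 with 5.96 TPM, ING1 with 6.5 TPM and SIRT5 with 6.81 TPM. The sirtuins ran up to SIRT2 at 29.3 TPM, the scaffolds from SIN3A at 12.5 to NCOR1 at 35.2 TPM, and the ING and YEATS genes up to ING4 at 25.2 TPM. The median within-group SD between replicates was 0.21 on the log2 CPM scale for these genes and 0.26 for all 15263 genes tested. Among the 57 genes it ran from 0.064 (KAT8) to 0.43 (HDAC10), which is as large as some of the changes given below. Because they overlap or share sequence with other genes, 6 of the 57 are uncertain, namely BRD7, HDAC10, KAT5, SIRT5, TADA3 and TAF1.

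**Figure D1:**
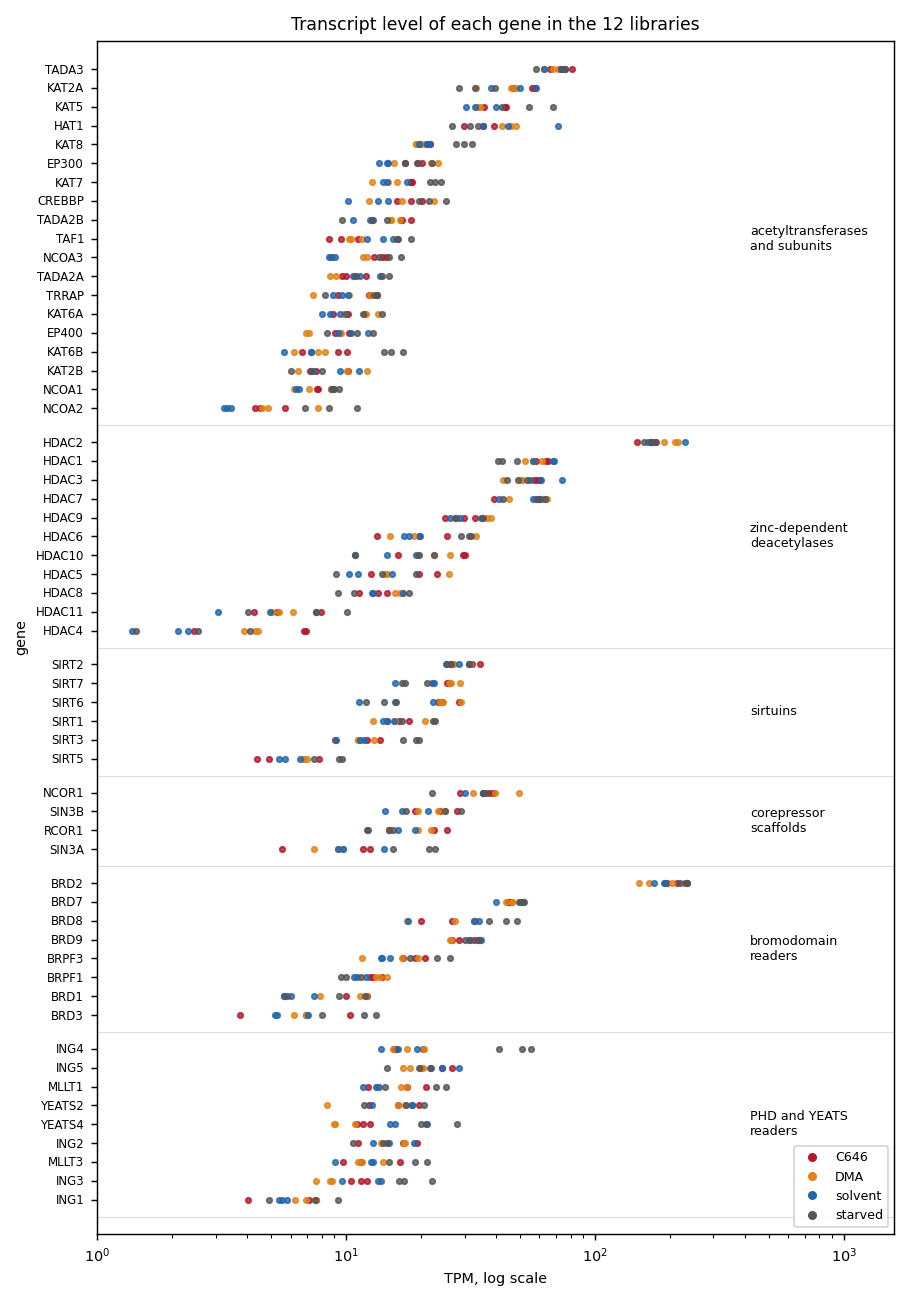
Transcript level in TPM (log axis) of each of the 57 genes in the 12 libraries, grouped by role and ordered by mean level within each role. Each point is 1 library, coloured by group. BRD2 and HDAC2 lie above all other genes in every library.

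Solvent was compared with starved cells to ask which of these transcripts differed after 4 h of refeeding with serum and glucose. Transcripts of many writers and readers were lower in refed cells, and those of HAT1 and HDAC1 were higher. Of the 57 genes, 19 fell and 2 rose (edgeR quasi-likelihood test, Benjamini-Hochberg adjusted p under 0.05), against 24.3% of all genes tested that were called, 11.7% lower and 12.6% higher. DESeq2 called 24 of the 57, where it called 28.5% of all genes. A share of 33.3% of the 57 genes was thus lower and 3.51% higher. The median effective transcript length was 3493 bases in the 19 genes lower, 2284 in the 36 not past and 1640 in the 2 higher. The ranges of length overlapped, all genes were not matched for length, and the part of length was not tested. The median log2 fold change was -0.39 over the 57 genes and 0.0032 over all genes tested. In log2 fold change, 40 of the 57 genes were below 0 and 17 above. All changes are relative to the bulk of the transcriptome, since the trimmed mean of M-values (TMM) sets the median of all genes close to 0. Scaling to the spike-in counts instead gave 1 gene lower (ING4, -0.95) and 3 higher (HAT1, HDAC1 and KAT2A), where 1.24% of all genes were lower and 21.1% higher. The SE were larger with that scaling (0.33 for EP300), so a change had to be larger to pass.

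Among acetyltransferases and coactivators, 9 of 19 fell and 1 rose. That is 47.4% lower and 5.26% higher, beside 11.7% and 12.6% of all genes tested. KAT6B (chromosome 10, 74824927 to 75032624 on GRCh38, plus strand), an acetyltransferase of the MYST family, measured 37.2, 38.2 and 28.5 CPM (counts per 1000000 counts of the TMM-scaled library) in solvent libraries 1, 2 and 3, against 73.7, 83.9 and 81.3 CPM in starved libraries. Every solvent library lay below every starved library. Here and below, the share of all genes whose groups did not overlap was not counted. The log2 fold change was -1.20 ± 0.17 (SE, edgeR adjusted p = 0.00029), or 0.435 of the starved level.

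NCOA2, a coactivator of nuclear receptors, measured 18.4, 18.2 and 16.8 CPM in solvent libraries and 36.8, 44.2 and 35.8 CPM in starved libraries, again without overlap (log2 fold change -1.13 ± 0.16, edgeR adjusted p = 0.00034). Its paralogue NCOA3 fell less, with 49.7 ± 3.58 CPM in solvent and 78.7 ± 7.55 CPM in starved cells (SD, n = 3 each, log2 fold change -0.66, edgeR adjusted p = 0.0011). The third paralogue, NCOA1, had a log2 fold change of -0.25 (edgeR adjusted p = 0.16), which did not pass.

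CREBBP measured 46.1, 60.9 and 56.9 CPM in solvent libraries and 91.5, 116 and 85.2 CPM in starved libraries. EP300 (chromosome 22, 41091786 to 41180079 on GRCh38, plus strand) measured 67.7, 81.5 and 83.0 CPM in solvent libraries and 104, 120 and 101 CPM in starved libraries. The groups did not overlap for either gene, and the log2 fold changes were -0.84 ± 0.17 for CREBBP (edgeR adjusted p = 0.0036) and -0.49 ± 0.12 for EP300 (edgeR adjusted p = 0.010).

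The other acetyltransferases of the MYST family also fell, with smaller log2 fold changes. KAT5 (TIP60), the catalytic subunit of NuA4, had -0.64, KAT8 (MOF), which acetylates histone H4 within the MSL and NSL complexes, had -0.62, KAT7 (HBO1) had -0.47 and KAT6A had -0.42. KAT5 shares 38.6% of its exon bases with RNASEH2C on the opposite strand, and no source used here says whether reads were counted by strand. The SAGA and ATAC acetyltransferases KAT2A (0.28) and KAT2B (-0.16), their adaptors TADA2A (-0.14), TADA2B (0.14) and TADA3 (-0.06), the TFIID subunit TAF1 (-0.19) and the NuA4 subunits EP400 (-0.39) and TRRAP (-0.36) did not pass.

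HAT1, which acetylates newly made histone H4 before its assembly into chromatin, was the 1 writer that rose. It measured 74.3, 41.4 and 49.5 CPM in solvent libraries and 35.7, 29 and 38.1 CPM in starved libraries (log2 fold change 0.69 ± 0.19, edgeR adjusted p = 0.021). The groups did not overlap, but solvent library 1 stood well above the other solvent libraries. Without it the log2 fold change was 0.41 (edgeR adjusted p = 0.10), and without starved library 1 or 2 the adjusted p was 0.051 and 0.095.

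Of the zinc-dependent deacetylases, 1 of 11 rose and 1 fell. That is 18.2% called, below the 24.3% of all genes tested. HDAC1 (chromosome 1, 32292086 to 32333635 on GRCh38, plus strand), a nuclear deacetylase of the SIN3, NuRD and CoREST complexes, measured 94.3, 92.3 and 81.4 CPM in solvent libraries and 60.2, 61.2 and 58.8 CPM in starved libraries. All solvent libraries were higher, and the log2 fold change was 0.57 ± 0.10 (edgeR adjusted p = 0.0011). Its close paralogue HDAC2 had a log2 fold change of 0.20 (edgeR adjusted p = 0.21). HDAC6, a cytoplasmic deacetylase known for acting on tubulin, measured 19.96, 27.6 and 23.1 CPM in solvent libraries and 43.5, 51.7 and 38.3 CPM in starved libraries, with no overlap (log2 fold change -0.92 ± 0.21, edgeR adjusted p = 0.0072). The remaining 8 deacetylases lay between -0.59 (HDAC11) and 0.29 (HDAC4) and did not pass.

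Among the sirtuins 2 of 6 fell, or 33.3%, beside 11.7% of all genes tested. SIRT3, which deacetylates mitochondrial proteins, measured 12, 11.3 and 13.4 CPM in solvent libraries and 18.8, 22.1 and 25.2 CPM in starved libraries, without overlap (log2 fold change -0.85 ± 0.18, edgeR adjusted p = 0.0038). The nuclear SIRT1 had a log2 fold change of -0.46 (edgeR adjusted p = 0.023). Of the 4 scaffolds, SIN3A fell, with 53.0, 37.0 and 35.7 CPM in solvent libraries against 79.0, 82.1 and 66.9 CPM in starved libraries (log2 fold change -0.86 ± 0.24, edgeR adjusted p = 0.019). Values for NCOR1 (0.09), RCOR1 (0.22) and SIN3B (-0.41) did not pass. The share of scaffolds called, 25%, is near the 24.3% of all genes tested.

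**Figure D2:**
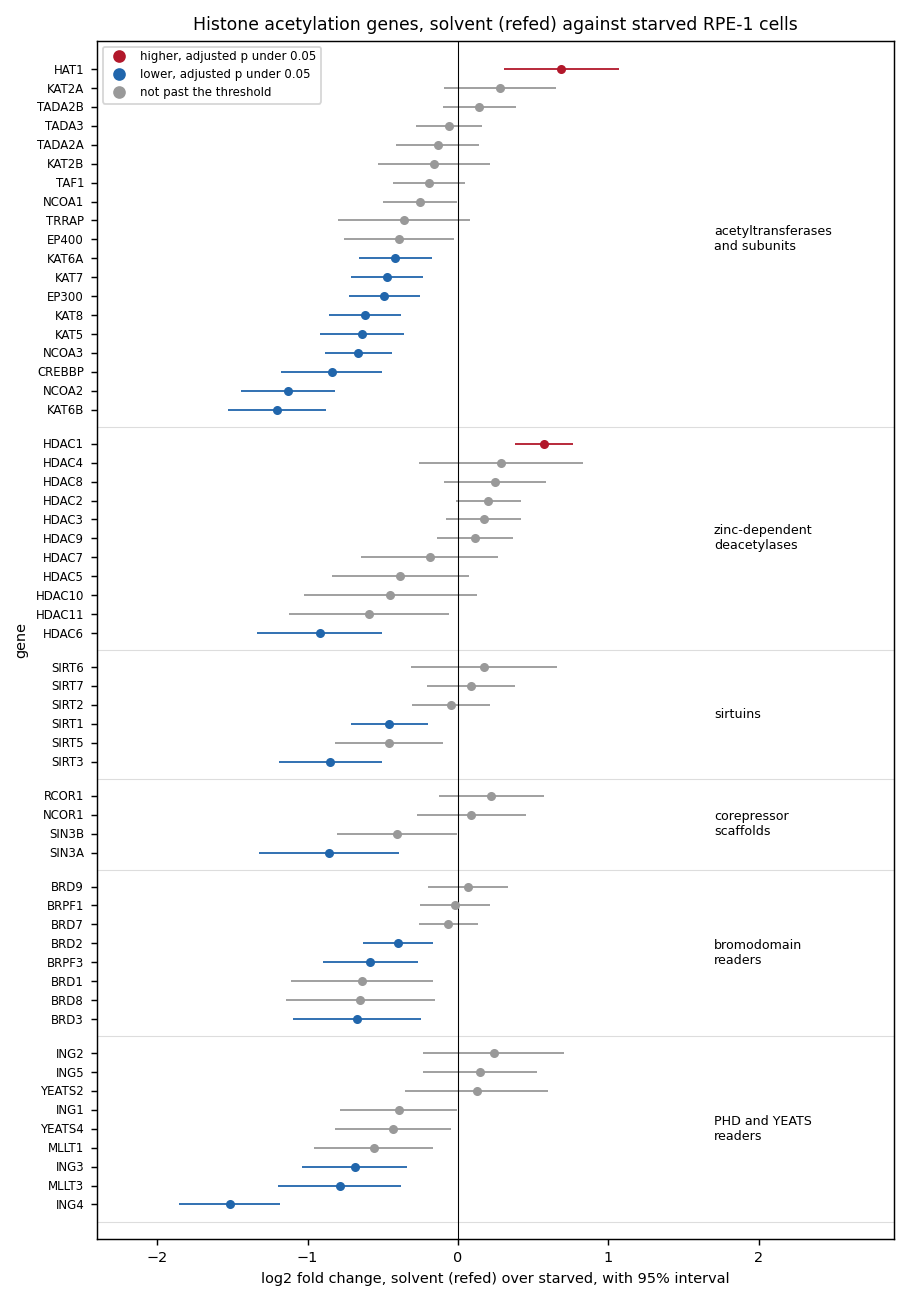
Log2 fold change of each of the 57 genes in solvent (refed) over starved cells with its approximate 95% interval (edgeR), grouped by role. Red marks the 2 genes that rose, blue the 19 that fell and grey the 36 that did not pass the threshold of 0.05. Most called genes lie left of 0 in every role except the zinc-dependent deacetylases, where HDAC1 and HDAC6 lie on opposite sides.

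Readers fell in 3 of 8 bromodomain genes and 3 of 9 PHD and YEATS genes, and none rose. That is 37.5% and 33.3% lower, beside 11.7% of all genes tested. ING4 (chromosome 12, 6650280 to 6663148 on GRCh38, minus strand), a PHD finger subunit of the HBO1 complex, had the largest fall of all 57 genes. It measured 11.8, 11.3 and 9.69 CPM in solvent libraries and 30.7, 27.9 and 35.5 CPM in starved libraries, so that each starved library held more than every solvent library (log2 fold change -1.52 ± 0.17, edgeR adjusted p = 8.7e-05). Its relative ING5, which joins the same complex, had a log2 fold change of 0.15 (edgeR adjusted p = 0.63).

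MLLT3, a YEATS protein of the super elongation complex, measured 18.7, 17.5 and 12.8 CPM in solvent libraries against 25.1, 28.6 and 31.1 CPM in starved libraries (log2 fold change -0.79 ± 0.21, edgeR adjusted p = 0.015). ING3, a NuA4 subunit, had a log2 fold change of -0.69. The BET reader BRD3 had -0.67, its relative BRD2 had -0.40, and BRPF3, a scaffold of MYST complexes, had -0.58. BRD1 (-0.64), BRD8 (-0.65) and MLLT1 (-0.56) had values of similar size that did not pass (edgeR adjusted p = 0.069, 0.079 and 0.061), although DESeq2 called all 3 (adjusted p = 0.037, 0.044 and 0.034).

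**Figure D3:**
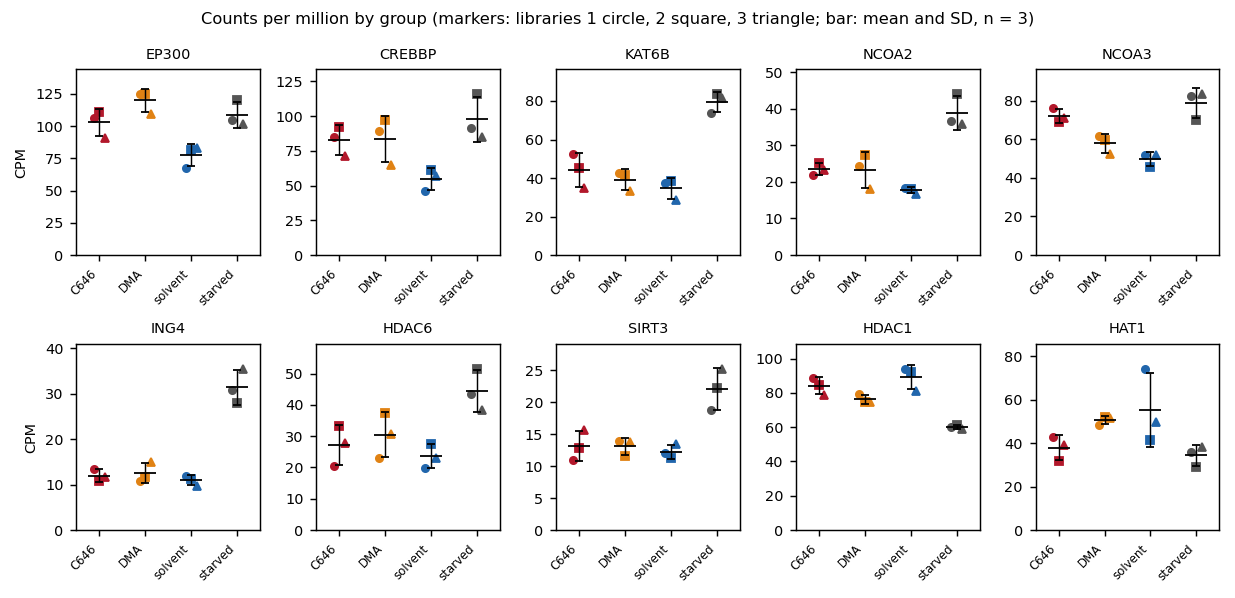
TMM-scaled CPM per library of 10 genes in C646, DMA, solvent and starved cells (points), with black bars for the group mean and SD (n = 3). In EP300, CREBBP, KAT6B, NCOA2, NCOA3, ING4, HDAC6 and SIRT3 all 3 solvent libraries lie below all 3 starved libraries, and in HDAC1 and HAT1 above them. The share of all genes that separate in this way was not counted.

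The number of calls changed with single libraries and with the scaling. Leaving out 1 library at a time, 10 of the 21 calls stayed past the threshold in every fit, namely CREBBP, KAT5, KAT6B, KAT8, NCOA2, NCOA3, HDAC1, HDAC6, SIRT3 and ING4, and the number of genes lower was 11 without starved library 2 or solvent library 3, and 11 to 20 over the 6 fits. The number of all genes called was 2270 without starved library 2, beside 3704. With the transcript length offset the calls of HDAC6, SIRT1 and BRD2 ended (edgeR adjusted p = 0.053, 0.061 and 0.096), and without the filter on low counts those of KAT6A and SIN3A ended (edgeR adjusted p = 0.053 and 0.051). With spike-in scaling the median log2 fold change was 0.24 over the 57 genes and 0.60 over all genes, and EP300, KAT6A, KAT7, SIRT1, BRD2 and BRPF3 had values of 0.047 to 0.21 that did not pass. The 57 genes lay 0.39 below the median of all genes with TMM and 0.36 below it with spike-in scaling. A change of scaling moves all genes by nearly the same amount. This difference was therefore bound to stay similar and is no further support for the calls.

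Promoter sequences from RefSeq (GRCh38.p14) were found for 50 of the 57 genes. Shown are the bases before the start of transcription, up to the first annotated exon, of both genes that rose and of CREBBP, a target of C646, each read 5′ to 3′ on the strand of its gene. Capitals mark the GC box, CCGCCC, the core of ETS factor sites, which is CCGGAAG, and the start of the cAMP response element, which is TGACGT. All were searched on both strands, so that the GC box can also appear as GGGCGG, the ETS core as CTTCCGG and the third motif as ACGTCA. Matches may overlap. The windows lie at chr2:171922211-171922447 on the plus strand for HAT1, at chr1:32291833-32292082 on the plus strand for HDAC1 and at chr16:3880727-3880963 on the minus strand for CREBBP.
HAT1: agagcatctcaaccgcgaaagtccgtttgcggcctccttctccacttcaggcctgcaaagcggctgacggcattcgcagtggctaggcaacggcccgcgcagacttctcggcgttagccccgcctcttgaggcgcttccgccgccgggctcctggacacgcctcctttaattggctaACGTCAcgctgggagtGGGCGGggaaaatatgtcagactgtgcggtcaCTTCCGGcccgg
HDAC1: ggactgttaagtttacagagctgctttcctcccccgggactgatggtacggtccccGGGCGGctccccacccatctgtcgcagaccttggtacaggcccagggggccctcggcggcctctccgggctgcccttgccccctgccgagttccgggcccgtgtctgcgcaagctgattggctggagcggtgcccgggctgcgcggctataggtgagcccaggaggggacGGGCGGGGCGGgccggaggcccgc
CREBBP: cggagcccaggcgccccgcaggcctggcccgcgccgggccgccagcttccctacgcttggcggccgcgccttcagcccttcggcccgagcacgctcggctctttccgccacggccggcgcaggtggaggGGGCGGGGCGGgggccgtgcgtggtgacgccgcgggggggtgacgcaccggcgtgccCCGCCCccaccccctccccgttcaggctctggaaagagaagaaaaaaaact

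HAT1 held 1 match of each of the 3 motifs. The windows of HDAC1 and CREBBP held 3 GC boxes each and neither of the other motifs. Over the 250 bases before the start, CCGCCC was found in 62% of the 50 promoters and in 56.0% of all 15843 promoters of the same length. CCGGAAG was found in 24% of the 50 and in 11.8% of all, TGACGT in 10% and 8.67%, and TATAAA in 2% and 9.23%. The median GC content was 71.8% for the 50 promoters and 62.4% for all. These matches describe letters in a window, not binding.

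Partner subunits and related genes on a list of 108, of which 104 were tested, showed 20 lower and 10 higher genes in solvent against starved cells, with a median log2 fold change of -0.06. That is 19.2% lower and 9.62% higher, beside 11.7% and 12.6% of all genes tested, which are also the shares to hold the following counts against. With spike-in scaling edgeR called 16 of them higher and none lower, where it called 21.1% of all genes higher and 1.24% lower. Of 12 further NuA4 subunits 3 fell and 2 rose, among them the NuA4 subunit MBTD1 (-0.77) and the ATPase RUVBL1 (0.61). Of 17 SAGA and ATAC subunits 2 fell and 1 rose, with SGF29 (-1.11), a reader of methylated histone H3, and WDR5 (0.65), a scaffold shared with methyltransferase complexes. Of 13 subunits of the HBO1, MSL and NSL complexes 3 fell, led by the NSL scaffold KANSL1 (-1.07), and none rose.

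Of 19 SIN3 and NuRD subunits 3 fell and 3 rose. The NuRD subunit MTA2 rose (0.78) and its paralogue MTA1 fell (-0.79). Of 11 CoREST and NCoR subunits 4 fell and 1 rose, led among those lower by the CoREST subunit PHF21A (-1.13), and KDM1A (0.48), the histone demethylase of CoREST, was the gene higher. Other bromodomain genes gave 5 lower and 3 higher of 22, among them BAZ2B (-0.73) and ATAD2B (0.77). Of 10 genes that supply acetyl-CoA, including ACLY, which makes it from citrate, none was called (edgeR), with 1 at an unadjusted p under 0.05 and 0 called by DESeq2.

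The comparison of DMA with solvent asks which of these transcripts differed when Na+/H+ exchange was inhibited during refeeding. EP300 was the 1 of 57 genes that rose, and none fell, against 1.75% of all genes tested that were called, 0.734% higher and 1.02% lower. The count of 1 of 57 is the same share, 1.75%, as that background. The background itself hung on single libraries, with 267 genes called in all and 1 without DMA library 2, 8 without solvent library 1, 30 without solvent library 2 and 119 without DMA library 3. At an unadjusted p under 0.05 there were 8 genes higher and 3 lower, a cut-off at which the share of all genes was not counted. DESeq2 called 6, where it called 7.18% of all genes. EP300 measured 125, 125 and 110 CPM in DMA libraries, against 67.7, 81.5 and 83.0 CPM in solvent libraries. Every DMA library was above every solvent library and the log2 fold change was 0.63 ± 0.12 (edgeR adjusted p = 0.023). The starved libraries, with 104, 120 and 101 CPM, overlapped with the DMA libraries.

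CREBBP measured 89.1, 97.0 and 65.1 CPM under DMA and 46.1, 60.9 and 56.9 CPM in solvent libraries. The groups did not overlap, but DMA library 3 stood close to solvent library 2, and the log2 fold change of 0.62 ± 0.17 did not pass (edgeR adjusted p = 0.080). DESeq2, also without a block, called CREBBP (0.62, adjusted p = 0.019), as did edgeR without the filter on low counts. The replicate numbers paired the DMA and solvent libraries, since same-numbered libraries deviated together. With the number as a block, CREBBP passed (0.60 ± 0.12, edgeR adjusted p = 0.011), as did EP300 (0.63, edgeR adjusted p = 0.0044). Without solvent library 1 the blocked call of CREBBP ended (0.47, edgeR adjusted p = 0.056) and that of EP300 did not (0.53, edgeR adjusted p = 0.024).

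With this block 5 genes were higher and 1 lower, where 10.2% of all genes were called, 4.76% higher and 5.46% lower, so the share of the 57 genes was again near that of all genes. Apart from EP300 and CREBBP, the genes higher were KAT6A (0.43, edgeR adjusted p = 0.013) and its complex partners BRD1 (0.91, edgeR adjusted p = 0.011) and BRPF1 (0.39, edgeR adjusted p = 0.045). BRD1 measured 33.7, 33.4 and 24.9 CPM with DMA, each value above the 13.8, 17.2 and 17.1 CPM with solvent. The gene lower was YEATS4, a YEATS subunit of NuA4 (-0.86, edgeR adjusted p = 0.013), with 7.84, 7.42 and 10.0 CPM under DMA against 17.8, 14.3 and 13.3 CPM under solvent, which did not overlap.

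The EP300 call of the fit without a block ended when solvent library 1, solvent library 2 or DMA library 2 was left out (edgeR adjusted p = 0.11, 0.058 and 0.12), in a fit of the DMA and solvent libraries alone (0.076) and with the transcript length offset (0.099). In the blocked fit that left out solvent library 1, 2 of the 57 genes were higher and 0 lower, and 476 of all genes were called, beside 1560 with that library. The deacetylases, sirtuins and scaffolds had no call in either fit, with HDAC1 at -0.23 (edgeR adjusted p = 0.22) and SIRT1 at -0.10 (edgeR adjusted p = 0.73). Of the 104 partner genes tested, JADE2 (0.67), a scaffold of the HBO1 complex, and PHF21A (0.70) rose and none fell in the edgeR fit without a block. That is 1.92% of them called, beside 1.75% of all genes tested. With the block 8 were higher and 2 lower, where 10.2% of all genes were called. DESeq2 called 5 higher and 1 lower, where it called 7.18% of all genes. The totals of both are near the share of all genes. At an unadjusted p under 0.05 there were 16, with all genes not counted at that cut-off.

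The comparison of C646 with solvent asks which transcripts of the acetylation machinery differed when p300 and CBP were inhibited during refeeding. NCOA3, which recruits p300 and CBP to nuclear receptors, was the 1 of 57 genes that rose, and none fell, against 1.21% of all genes tested that were called, 0.812% higher and 0.4% lower. Of the 57 genes, 1.75% were called. The background again hung on single libraries, with 185 genes called in all, 24 without solvent library 1, 35 without C646 library 1, 66 without C646 library 3, 96 without solvent library 2 and 114 without C646 library 2. At an unadjusted p under 0.05 there were 11 genes higher and 6 lower, again without a count of all genes to hold them against. DESeq2 called 5, where it called 5.84% of all genes. NCOA3 (chromosome 20, 47501902 to 47656877 on GRCh38, plus strand) measured 76.0, 68.8 and 70.9 CPM in C646 libraries and 51.9, 45.6 and 51.6 CPM in solvent libraries. The groups were well apart, with a log2 fold change of 0.53 ± 0.11 (edgeR adjusted p = 0.040), and the starved libraries measured 82.5, 70.0 and 83.6 CPM.

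The genes of the inhibitor's targets had higher values with C646 that did not pass in the filtered edgeR fit without a block. DESeq2, also without a block, called both EP300 (0.41, adjusted p = 0.030) and CREBBP (0.60, adjusted p = 0.026), where it called 5.84% of all genes. Without the filter on low counts edgeR called CREBBP but not EP300. EP300 measured 106, 111 and 91.0 CPM in C646 libraries and 67.7, 81.5 and 83.0 CPM in solvent libraries (log2 fold change 0.41 ± 0.12, edgeR adjusted p = 0.10). CREBBP measured 84.9, 92.1 and 71.4 CPM in C646 libraries and 46.1, 60.9 and 56.9 CPM in solvent libraries (log2 fold change 0.60 ± 0.17, edgeR adjusted p = 0.097). All C646 libraries lay above all solvent libraries for both genes. The share of all genes that separated in this way was not counted, so this is no further support for a change.

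The replicate numbers paired these libraries too. With the block, 5 genes were higher and 2 lower, where 7.86% of all genes were called, 4.12% higher and 3.73% lower. EP300 (0.41, edgeR adjusted p = 0.031), CREBBP (0.59, edgeR adjusted p = 0.012) and NCOA3 (0.53, edgeR adjusted p = 0.0076) were joined by BRPF3 (0.44, edgeR adjusted p = 0.017) and the CoREST scaffold RCOR1 (0.52, edgeR adjusted p = 0.034). Without solvent library 1 the blocked calls of EP300 (0.30, edgeR adjusted p = 0.17) and CREBBP (0.47, edgeR adjusted p = 0.071) ended, and NCOA3 was the 1 gene still past the threshold (edgeR adjusted p = 0.039). RCOR1 measured 60.5, 61.4 and 90.1 CPM in C646 libraries, of which the third stood apart, and 47.3, 44.6 and 54.4 CPM in solvent libraries.

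Lower with the block were TADA2A (-0.46, edgeR adjusted p = 0.045) and TAF1 (-0.38, edgeR adjusted p = 0.044). TADA2A, an adaptor of the ATAC complex, measured 12.3, 12.1 and 12.7 CPM in C646 libraries and 18.1, 14.7 and 18.4 CPM in solvent libraries, with no overlap. TAF1 measured 33.9, 34.7 and 28.3 CPM in C646 libraries and 44.0, 43.8 and 38.4 CPM in solvent libraries, also without overlap. In the blocked fit that left out solvent library 1, 322 of all genes were called, beside 1199 with that library. Without a block the NCOA3 call ended in each of the 6 fits that left out 1 library (edgeR adjusted p = 0.072 to 0.16) and in a fit of the C646 and solvent libraries alone (0.092). Of the 104 partner genes tested, edgeR without a block called none, where it called 1.21% of all genes. With the block it called 5 higher and 3 lower, where it called 7.86% of all genes. DESeq2 called 6, where it called 5.84% of all genes. The totals of both are near the share of all genes. At an unadjusted p under 0.05 there were 22, with all genes not counted at that cut-off.

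**Figure D4:**
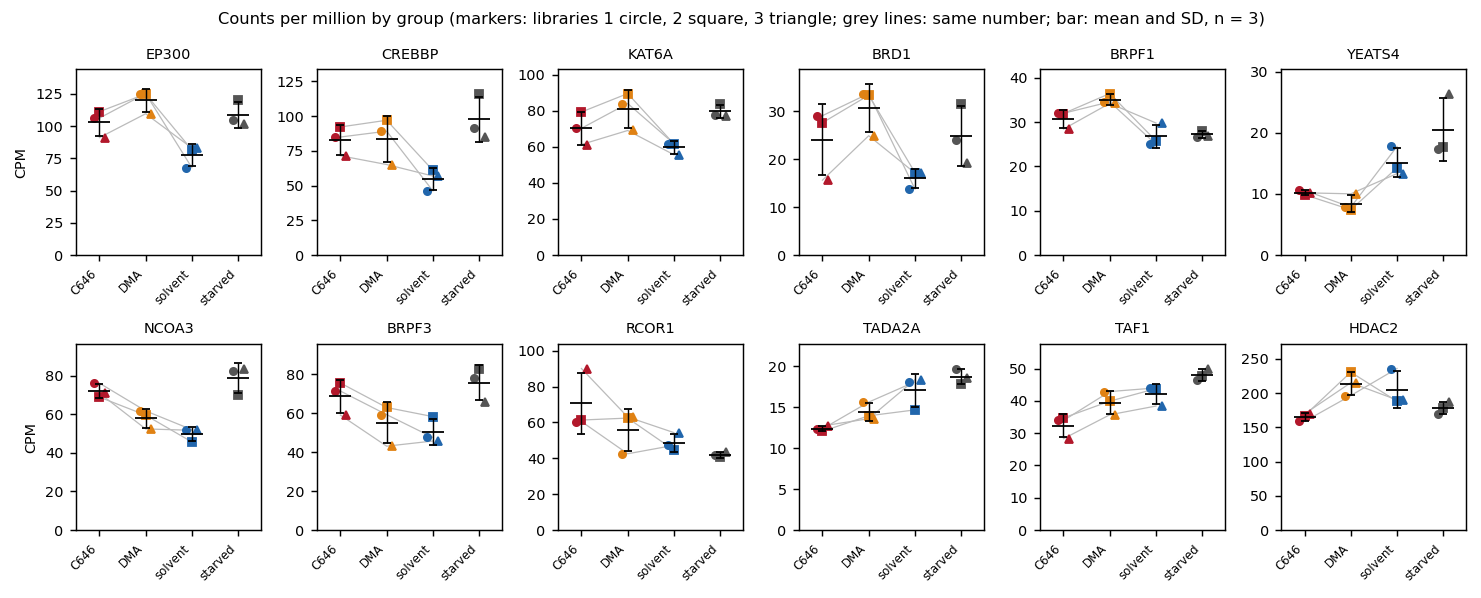
TMM-scaled CPM per library of 12 genes in C646, DMA, solvent and starved cells (points), with black bars for the group mean and SD (n = 3) and grey lines joining libraries of the same number. For EP300, CREBBP and NCOA3 the solvent libraries lie below all libraries of the other 3 groups, while for YEATS4 the C646 and DMA libraries lie below the solvent libraries. The same solvent libraries serve in each comparison with solvent, so these differences are not independent of each other.

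Both inhibitors were set against the same solvent libraries, so the 2 comparisons share their controls, and C646 was therefore compared with DMA directly. The solvent libraries also enter the comparison with starved cells. Opposite signs in that comparison and in those of the inhibitors are thus partly built in, and a reversal of the refeeding change was not tested. Without a block edgeR called 0 of 57 genes, where 2.89% of all genes tested were called, 1.95% higher and 0.943% lower (441 genes, with 316 when DMA library 1 was left out and 180 to 240 when any other library of the pair of groups was). At an unadjusted p under 0.05 there were 4 genes, with all genes not counted at that cut-off. DESeq2 called 1 (HDAC2), where it called 6.91% of all genes. CREBBP averaged 82.8 ± 10.5 CPM with C646 and 83.7 ± 16.6 CPM with DMA (SD, n = 3 each), a log2 difference of -0.02 with a 95% interval from -0.35 to 0.32. EP300 averaged 103 ± 10.5 CPM with C646 and 120 ± 8.94 CPM with DMA (SD, n = 3 each), a log2 difference of -0.22 with a 95% interval from -0.46 to 0.01. The intervals, which are approximate and somewhat narrow, leave differences of that size possible in either gene.

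With the block, which holds for this pair of groups as well, 2 of the 57 genes passed, where 9.81% of all genes did, 5.85% higher and 3.96% lower. HDAC2 measured 159, 167 and 170 CPM with C646 and 196, 230 and 215 CPM with DMA, without overlap (log2 difference -0.37 ± 0.11, edgeR adjusted p = 0.041). BRPF3 measured 71.4, 75.5 and 59.1 CPM with C646 and 59.3, 62.9 and 43.1 CPM with DMA. In BRPF3 the groups overlapped, although the C646 library was higher for each number (log2 difference 0.33 ± 0.10, edgeR adjusted p = 0.049).

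For 52 of the 57 genes the deposited TPM also allowed transcripts annotated as protein-coding to be set against the gene's other transcripts, such as retained introns. The log2 ratio of these other transcripts to the protein-coding ones (in TPM) changed past the threshold in 0 of the 52 genes in each of the 4 comparisons (limma), with 5, 7, 6 and 1 genes at an unadjusted p under 0.05 for solvent against starved, DMA against solvent, C646 against solvent and C646 against DMA. Of the 8072 genes tested, 0.0496%, 0.0496%, 0.0248% and 0.0124% were called past the adjusted threshold in the same order. Their share at the unadjusted p was not counted. The share was unsteady between replicates. In CREBBP, transcripts not annotated as protein-coding took 0.677%, 2.39% and 6.77% of the TPM in C646 libraries, 1.85%, 2.49% and 6.08% in DMA libraries, 30.4%, 24.1% and 7.21% in solvent libraries and 7.27%, 3.12% and 12.5% in starved libraries. Solvent libraries 1 and 2 were the highest, and solvent library 3 overlapped with the starved libraries.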

How the data were processed

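Poly-A RNA of 12 RPE-1 libraries was analysed from the deposited tables. Per the submitters' processing notes, the build was GRCh38.p10, and the tools included STAR 2.7.0e and Trimmomatic 0.36. Per the file headers, each transcript has an expected count (estimated reads), a TPM value and an effective length, which is another kind of value, a length in bases. The deposited TPM values of each library sum to 1000000. Which program quantified the transcripts, with which annotation and strand option, is not given in the sources used here.

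Of 182164 transcripts, 92 were spike-in sequences, and 264, with 0.0923% to 0.146% of the counts, had no match in GENCODE 29 and were not used. The deposited expected counts were summed over the transcripts of each of 43481 genes in GENCODE 29 and rounded. The table was filtered by filterByExpr with a minimum count of 10 and a minimum total of 15, scaled with TMM and tested in 1 robust quasi-likelihood fit of all 12 libraries with edgeR 4.0.16, without a replicate block. Benjamini-Hochberg adjustment covered the 15263 genes tested, and the threshold was 0.05. The share of all genes at an unadjusted p under 0.05 was not counted for any test. Counts of listed genes at that cut-off therefore have no background and cannot be read as an excess. The share of all genes whose groups did not overlap was not counted either. Statements that groups did not overlap therefore describe the libraries and add no support to a call. Log2 ratios of transcript classes, with 0.1 TPM added to each part, were tested with limma 3.58.1 over 8072 genes with a mean of at least 5 TPM. The scripts were tested on simulated data.

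The replicate numbers were taken to pair libraries where same-numbered libraries deviated from their group means together, with every correlation across genes over 0.1. Correlations were 0.28 to 0.38 for C646 with solvent, 0.33 to 0.48 for DMA with solvent and 0.28 to 0.48 for C646 with DMA, and the block is given for these. For solvent with starved libraries they were 0.0957 to 0.33, beside -0.26 to 0.063 for libraries of different numbers. The lowest was just under the limit of 0.1, so by this rule the numbers were not taken to pair them. The blocked fit still held all 12 libraries, so the starved libraries also entered its estimates of the replicate effects.

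The 57 genes and the lists of partners and markers were chosen with earlier results of these data known. Genes were named by a rule: the members past the threshold (up to the 8 largest changes in each direction), EP300 and CREBBP, the highest and lowest 2 by mean TPM in each class, and of each list up to 2 partners per direction. Further genes named were chosen after their values were seen. The partner ZZZ3 was not analysed here. Uncertain genes share over 20% of their 31-base sequences, or of their exon bases, with another gene. Alternatives were spike-in scaling, the Wald test of DESeq2 1.42.0, its size factors in edgeR, no filter, a filter at 1 CPM in all libraries of a group, fits of the compared groups alone, the block, a transcript length offset, a minimum log2 change of 0.5 and the omission of each library. Intervals cover 95%.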

Additional observations from a re-analysis of the deposited data

Results flagged for a closer look

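With the replicate number as a block, HDAC2 and BRPF3 differed between the inhibitor groups under the direct comparison of C646 with DMA. HDAC2 was lower with C646 than with DMA (log2 difference -0.37 ± 0.11, edgeR adjusted p = 0.041), and its fit without a block gave the same log2 difference with an adjusted p of 0.089. BRPF3 was higher with C646 than with DMA (0.33 ± 0.10, edgeR adjusted p = 0.049), and its fit without a block gave 0.32 with an adjusted p of 0.34. With 9.81% of all genes called in the blocked fit, 2 of 57 is not above the background.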

How the results depend on the processing

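In solvent against starved cells, spike-in scaling gave 1 gene lower in place of 19 and a median of 0.24 in place of -0.39 over the 57 genes. It turned the log2 fold changes of EP300 (0.13), KAT6A (0.17), KAT7 (0.074), SIRT1 (0.10), BRD2 (0.21) and BRPF3 (0.047) positive. With it no gene was called higher for DMA against solvent or for C646 against solvent, and the median for DMA against solvent was 0.31. The spike-in fits have larger SE (0.33 for EP300 in solvent against starved cells), so a change had to be larger to pass. Spike-in sequences took 1.06%, 0.527% and 0.663% of the counts in solvent libraries 1, 2 and 3, and 1.28%, 0.959% and 0.872% in starved libraries. The cause of the larger SE was not tested. The median in solvent against starved cells was -0.37 with the replicate block, -0.32 with the transcript length offset and -0.21 with the block and no solvent library 1, and leaving out 1 library gave -0.39 to -0.25. Leave-one-out fits gave 1 to 2 genes higher and 11 to 20 lower there, 0 to 2 higher for DMA against solvent and 0 higher in each fit for C646 against solvent. In those fits the number of all genes called was 2270 to 3447, 1 to 286 and 24 to 134 for these comparisons.

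In DMA against solvent, DESeq2 called 5 higher and 1 lower, leaving out the filter gave 3 higher and 1 lower, the stricter filter gave 1 lower, and a fit of the compared groups alone or the length offset gave 0 higher. The replicate block gave 5 higher and 1 lower, and 2 higher without solvent library 1. In C646 against solvent, DESeq2 called 3 higher and 2 lower, leaving out the filter gave 2 higher, the compared groups alone gave 0 higher, and the block gave 5 higher and 2 lower. In C646 against DMA, DESeq2 called 1 lower, and the block gave 1 higher and 1 lower. CREBBP there was 0.00026 without a filter, 0.057 with the length offset, and -0.16 to 0.10 without 1 library (0.033, 0.10 and 0.081 without DMA library 1, DMA library 2 and C646 library 3), beside -0.02.

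The block does not pair solvent with starved libraries by the rule used, and gave 2 higher and 24 lower there, where 35.7% of all genes were called. Transcript class ratios were called in 0 genes under every alternative run. With 3 libraries a group, differences within the intervals given cannot be seen, whatever the depth.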
